A study of Rattus norvegicus with 8 samples.

Results

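The genes described here encode secreted factors that keep neurons alive and guide their axons, together with receptors of the GDNF family. They were chosen by gene symbol from the table of normalized read counts as Bdnf, Ntf3, Gdnf, Nrtn, Artn, Cntf, Lif, Gfra1 and Gfra3. Of these 9 genes, 8 were matched by symbol among the 32545 genes of the table, and all 8 passed the filter on low counts. Gfra1 was not analysed here.

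Bulk RNA-seq was performed on sciatic nerve tissue of outbred female Sprague Dawley rats (Envigo) aged 3 to 6 months. The groups were 3 PEG-fused peripheral nerve allografts (PNAs), 3 negative control (NC) PNAs and 2 unoperated (Unop) nerves, 1 animal per library and 8 libraries in all. A PNA is a piece of donor nerve sutured into a gap in the sciatic nerve of a host that is neither tissue matched nor immunosuppressed. Both kinds of PNA were sutured and washed with hypotonic saline and methylene blue, and polyethylene glycol (PEG), which fuses the membranes of apposed cut axons, was put only on the PEG-fused PNAs. All PNAs were taken at 14 days PO (post-operatively). A PNA holds donor cells and cells of the host that entered it, and Unop nerves had no surgery, so the comparison with them joins transplantation, suture and injury.

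Neurotrophic factors act on axons through receptors in the axon membrane. GDNF, neurturin and artemin bind a GFRα co-receptor anchored on the cell surface, which then engages the receptor tyrosine kinase RET; BDNF and neurotrophin-3 bind the kinases TrkB and TrkC and share the low-affinity receptor p75NTR; CNTF and LIF signal through a complex of LIFR and gp130. In an intact nerve, myelinating Schwann cells are a known store of CNTF, and after injury Schwann cells lose myelin and take on a repair state in which they are known to make GDNF, BDNF, artemin and LIF.

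Depth ranged from 32472925 to 39959620 reads on genes. Summed counts of 3 Schwann cell markers (Sox10, Erbb3 and Cdh19) were between 14617 and 16686 in the PEG-fused PNAs, between 8284 and 10702 in the NC PNAs, and 23030 and 27646 in Unop nerves, and all 3 were present in every library. NC 1 and NC 3 stood apart in 4 markers of skeletal muscle fibres, whose summed counts were 6830 in NC 2 and reached 394147 in NC 1. Summed counts of 4 T cell markers were between 1199 and 3388 in the PEG-fused PNAs, between 13072 and 23540 in the NC PNAs, and 125 and 256 in Unop nerves. The sums of 5 neuronal markers were at or below 85.9 in every PNA and at 894 and 903 in the Unop nerves. In bulk tissue, fewer cells of a type and less RNA per cell cannot be told apart.

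Bdnf, Gdnf, Artn and Lif were higher and Cntf and Ntf3 lower in both kinds of PNA than in Unop nerves, while between the PNAs Lif was higher and Gfra3 lower with PEG fusion. By limma at a Benjamini-Hochberg adjusted p (padj) under 0.05 over 16478 tested genes, all 8 genes were called in NC PNAs against Unop nerves, 5 higher and 3 lower, where 32.2% of all tested genes were higher and 32.3% lower. In PEG-fused PNAs against Unop nerves, 4 were higher and 2 lower, where 29.1% of all tested genes were higher and 28.6% lower. Between PEG-fused and NC PNAs, 1 of 8 was higher and 1 lower, close to the shares of all tested genes, of which 15.0% were higher and 13.9% lower. The median log2 fold change of the 8 genes in that comparison was 0.69, beside 0.0017 over all tested genes. These 3 comparisons share libraries and are not independent of each other. Without NC 1 or NC 3, the libraries with the most muscle transcripts, 8 and 7 genes were called in NC PNAs against Unop nerves. Between the PNAs 1 gene was called in each case, Nrtn without NC 1 and Lif without NC 3, and Gfra3 in neither. Leaving out PEG 1 or PEG 2 left 0 of the 8 called by limma between the PNAs, where 3 had an unadjusted p under 0.05 in each case. The shares of all tested genes in the fits with a library left out are not given here, so these counts have no background beside them.

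**Figure D1:**
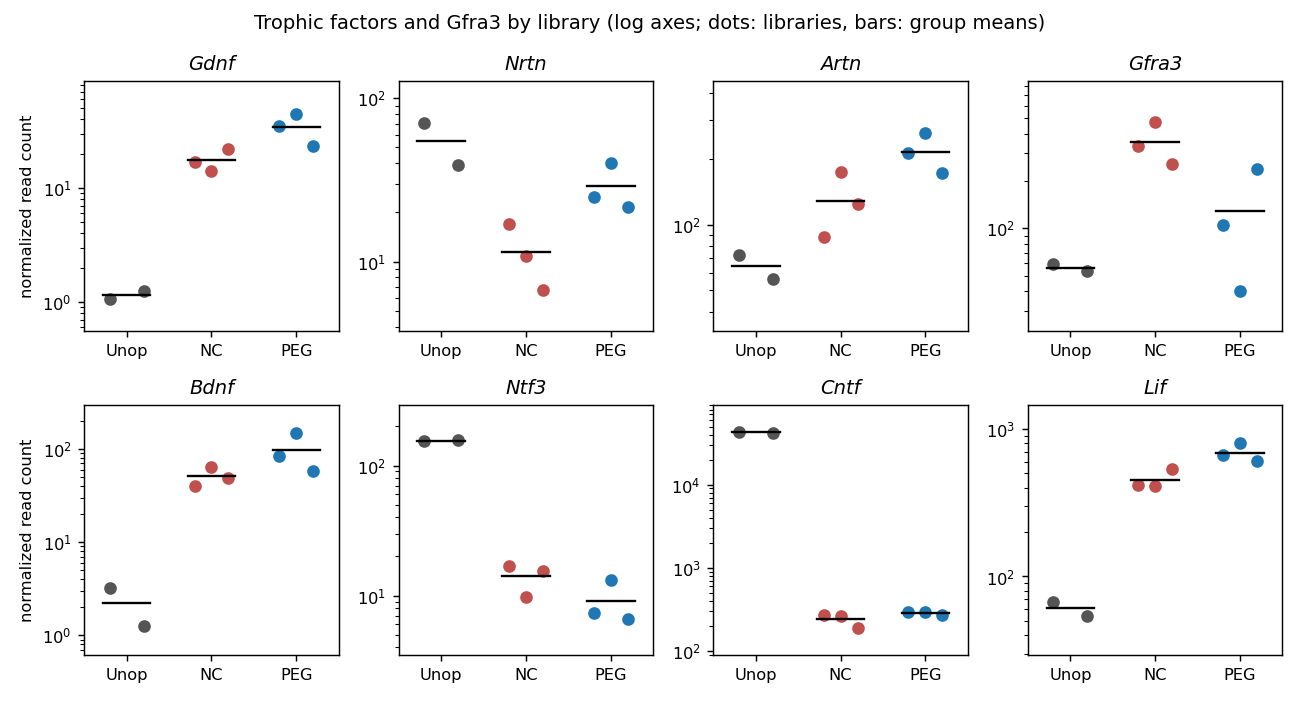
Normalized read counts of Gdnf, Nrtn, Artn, Gfra3, Bdnf, Ntf3, Cntf and Lif in each of the 8 libraries, on log axes that differ between panels. Dots are single libraries (2 Unop, 3 NC, 3 PEG) and bars are arithmetic group means; Cntf and Ntf3 are far above the PNAs in both Unop nerves, and Bdnf and Gdnf far below them.

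Gdnf (ENSRNOG00000012819) encodes glial cell line-derived neurotrophic factor, a survival factor of motor neurons. Its normalized read counts were 35.2, 44.9 and 23.5 in PEG 1 to 3, 17.0, 14.0 and 22.2 in NC 1 to 3, and 1.07 and 1.25 in the Unop nerves, where each nerve gave 1 read. Every PEG-fused PNA lay above every NC PNA, and every PNA lay above both Unop nerves. Against Unop nerves, the ratio of summed reads, scaled for library size, was 29.9 in PEG-fused PNAs (95% counting interval 8.08 to 250, exact, on 111 and 2 reads). It was 15.4 in NC PNAs (4.07 to 131), and both comparisons were called by limma (padj = 6.37e-05 and 0.000194). The difference between the 2 kinds of PNA, a log2 fold change of 0.90 with a 95% interval between 0.09 and 1.71, did not pass the threshold (limma padj = 0.0917). In RefSeq's annotation of GRCr8 a long non-coding RNA gene overlaps Gdnf, and the strand setting of the counting is not given in the sources used here, so some reads may belong to either gene.

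Artn (ENSRNOG00000019842) encodes artemin, which acts on sensory and sympathetic neurons. It was counted at 211, 262 and 172 in PEG 1 to 3, at 87.6, 174 and 123 in NC 1 to 3, and at 73.0 and 56.3 in the Unop nerves. The 2 kinds of PNA overlapped only in NC 2, which lay just above PEG 3, and every PNA lay above both Unop nerves. PEG-fused PNAs were 3.27-fold higher than Unop nerves on the log2(count + 1) scale (log2 fold change 1.71, standard error 0.31, limma padj = 0.00186), and NC PNAs were 1.91-fold higher (log2 fold change 0.94, limma padj = 0.0287). The call for NC PNAs rested on single libraries: without NC 2, NC 3 or Unop 2 its limma padj was 0.0692, 0.0606 and 0.150, and in a fit of only these 2 groups it was 0.0574. Between PEG-fused and NC PNAs the log2 fold change was 0.77 (limma padj = 0.0727), and it was 1.02 without NC 2 (limma padj = 0.0284).

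Nrtn (ENSRNOG00000048651), which encodes neurturin, had the opposite order to Gdnf and Artn in the Unop nerves. Its counts were 25.0, 40.2 and 21.6 in PEG 1 to 3, 17.0, 10.8 and 6.75 in NC 1 to 3, and 70.8 and 38.8 in the Unop nerves. Every NC PNA lay below every other library, while PEG 2 lay between the Unop nerves. NC PNAs were 4.53-fold lower than Unop nerves (log2 fold change -2.18, standard error 0.47, limma padj = 0.00358). For PEG-fused PNAs against Unop nerves the log2 fold change was -0.89, with a 95% interval between -1.96 and 0.19 (limma padj = 0.140). Against NC PNAs it was 1.29 (standard error 0.42), and the limma padj of 0.0502 lay at the threshold: it was 0.0301 without NC 1, 0.0499 in DESeq2 and 0.167 without PEG 2. The counts of Nrtn in NC PNAs rested on between 7 and 19 reads per library.

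Gfra3 (ENSRNOG00000020309) encodes GFRα3, the co-receptor that binds artemin. Its counts were 105.7, 40.2 and 240.1 in PEG 1 to 3, 336, 478 and 257 in NC 1 to 3, and 59.0 and 53.8 in the Unop nerves. The PEG-fused PNAs spread widely, with PEG 2 below both Unop nerves and PEG 3 just below NC 3, and every PEG-fused PNA was below every NC PNA. NC PNAs were 6.04-fold higher than Unop nerves (log2 fold change 2.59, standard error 0.63, limma padj = 0.00643). PEG-fused PNAs were 3.40-fold lower than NC PNAs (log2 fold change -1.76, standard error 0.56, limma padj = 0.0466), the opposite sign to artemin in the same libraries.

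The lower level of Gfra3 in PEG-fused PNAs was close to the threshold and was called in 6 of 18 alternative fits. It was not called by edgeR (log2 fold change -1.46, padj = 0.0770) and was called by DESeq2 (-1.47, padj = 0.0176). Without PEG 2 the log2 fold change was -1.11 (limma padj = 0.0966), and without PEG 3 it was -2.39 (limma padj = 0.0114). With any other single library left out, the limma padj was between 0.0652 and 0.120. Against Unop nerves the log2 fold change of PEG-fused PNAs was 0.83 (limma padj = 0.287), and without PEG 2 it was 1.48 (limma padj = 0.0222). Several marker sums were also lowest in PEG 2 among the PEG-fused PNAs. They included T cells (1199), endothelium (5733), myelinating Schwann cells (9553) and skeletal muscle fibres (2105). Those of fibroblasts (373905) and of Schwann cells of any state (16686) were highest there. Single markers did not all follow their sums. Among the PEG-fused PNAs, Col1a1 (205392) and Lum (74178) were highest in PEG 2, but Pdgfra (9702) was lowest there. Dcn (84633), Mbp (8335) and Mag (13.1) of PEG 2 lay between the other PEG-fused PNAs, and Sox10 was highest in PEG 3 (2686). The part of cell content in the Gfra3 values was not tested.

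Ret, the kinase that GFRα co-receptors engage, was lower in PEG-fused than in NC PNAs as well. It was counted at 77.9, 48.6 and 89.1 in PEG 1 to 3, at 185.9, 238 and 187.1 in NC 1 to 3, and at 233 and 301 in the Unop nerves. No PEG-fused PNA reached the level of any other library, and the log2 fold change was -1.52 (limma padj = 0.00373) against NC PNAs and -1.91 (limma padj = 0.000561) against Unop nerves. NC PNAs and Unop nerves did not differ beyond the threshold (log2 fold change -0.39, 95% interval between -1.03 and 0.26, limma padj = 0.253). The co-receptors of neurturin and persephin, Gfra2 and Gfra4, were higher in PEG-fused than in NC PNAs, with log2 fold changes of 0.67 and 1.32 (limma padj = 0.0481 and 0.0274), and both calls were lost without PEG 1, PEG 2, PEG 3, NC 2 or NC 3 and that of Gfra2 also without either Unop nerve and in edgeR. Ncam1, an adhesion molecule that can also bind GDNF, had a log2 fold change of 0.68 (limma padj = 0.103).

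Bdnf (ENSRNOG00000047466) encodes brain-derived neurotrophic factor. It was counted at 84.3, 147 and 58.2 in PEG 1 to 3, at 40.2, 64.5 and 48.2 in NC 1 to 3, and at 3.22 and 1.25 in the Unop nerves, on 3 reads and 1 read. Every PNA was above both Unop nerves, and NC 2 lay above PEG 3. The ratio of summed reads, scaled for library size, over Unop nerves was 41.7 in PEG-fused PNAs (95% counting interval 16.1 to 154, exact, on 310 and 4 reads). It was 21.7 in NC PNAs (8.32 to 80.8, on 155 and 4 reads), and both comparisons were called by limma (padj = 4.86e-05 and 9.78e-05). Between the 2 kinds of PNA the log2 fold change was 0.83, with a 95% interval between -0.12 and 1.78 (limma padj = 0.166), and it was called by limma, edgeR or DESeq2 in none of 18 alternatives, with an unadjusted p under 0.05 in 4 of them.

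Ntf3 (ENSRNOG00000019716), which encodes neurotrophin-3, ran the other way. Its counts were 7.42, 13.1 and 6.57 in PEG 1 to 3, 17.0, 9.68 and 15.4 in NC 1 to 3, and 155 and 156 in the Unop nerves. Both Unop nerves were far above every PNA, and PEG 2 lay above NC 2. The count was 16.2-fold lower in PEG-fused PNAs than in unoperated nerves (log2 fold change -4.02, standard error 0.39, limma padj = 5.42e-05) and 10.7-fold lower in NC PNAs (log2 fold change -3.41, limma padj = 9.59e-05). PEG-fused and NC PNAs did not differ beyond the threshold (log2 fold change -0.60, 95% interval between -1.40 and 0.19, limma padj = 0.223), on 7 to 19 reads per PNA.

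In RNA of the bulk tissue, genes of the neurotrophin receptors divided between the kinase receptors and p75NTR. Which cells held the RNA of these and the other receptors was not tested. Counts per gene do not separate transcript forms, and receptor protein on axons was not measured. Ntrk2, which encodes TrkB, was counted at 390.2, 312 and 449 in PEG 1 to 3, at 567, 608 and 308 in NC 1 to 3, and at 4002 and 3925 in the Unop nerves. Ntrk3, which encodes TrkC, was counted at 80.6, 91.6 and 125 in PEG 1 to 3, at 86.7, 45.2 and 30.9 in NC 1 to 3, and at 532 and 614 in the Unop nerves. Both were lower in each kind of PNA than in Unop nerves, with log2 fold changes between -3.50 and -2.54, and neither was called between PEG-fused and NC PNAs (limma padj = 0.379 and 0.0770).

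Ngfr, the gene of p75NTR and a marker of Schwann cells without myelin, was counted at 15448, 20293 and 17141 in PEG 1 to 3, at 6423, 7128 and 5706 in NC 1 to 3, and at 1140 and 713 in the Unop nerves. The groups did not overlap, and PEG-fused PNAs were higher than NC PNAs by 1.45 on the log2 scale (limma padj = 0.00135).

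Cntf (ENSRNOG00000012460) encodes ciliary neurotrophic factor, a cytokine without a signal peptide that is held inside myelinating Schwann cells. Its counts were 297, 294 and 267 in PEG 1 to 3, 273, 262 and 188 in NC 1 to 3, and 43505 and 41464.5 in the Unop nerves. The libraries of each kind lay close together, with a coefficient of variation of 5.63% in the PEG-fused PNAs, 19.1% in the NC PNAs and 3.40% in Unop nerves. Counts were 148-fold lower in PEG-fused PNAs than in unoperated nerves (log2 fold change -7.21, standard error 0.16, limma padj = 3.64e-07) and 178-fold lower in NC PNAs (log2 fold change -7.47, limma padj = 2.30e-07). Between the 2 kinds of PNA the log2 fold change was 0.26, with a 95% interval between -0.07 and 0.59 (limma padj = 0.203). Summed counts of 4 markers of myelinating Schwann cells (Mbp, Mag, Prx and Pmp2) moved the same way, between 9553 and 10963 in the PEG-fused PNAs, between 4901 and 22047 in the NC PNAs, and 921428 and 1084470 in Unop nerves, and their part in the Cntf values was not tested.

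Lif (ENSRNOG00000007002) encodes leukemia inhibitory factor, a cytokine of the same receptor family as CNTF. It was counted at 667, 799 and 608 in PEG 1 to 3, at 416, 411 and 534 in NC 1 to 3, and at 67.6 and 53.8 in the Unop nerves. No groups overlapped, with PEG-fused PNAs the highest and Unop nerves the lowest. The mean count was 692 ± 98.0 (SD, n = 3) in the PEG-fused PNAs, 454 ± 70.0 (SD, n = 3) in the NC PNAs and 60.7 ± 9.78 (SD, n = 2) in the 2 unoperated ones. Against the latter, Lif was 11.2-fold higher in PEG-fused PNAs (log2 fold change 3.49, standard error 0.19, limma padj = 3.27e-06) and 7.36-fold higher in NC PNAs (log2 fold change 2.88, limma padj = 4.82e-06).

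PEG-fused PNAs were 1.52-fold higher in Lif than NC PNAs (log2 fold change 0.61, standard error 0.17, limma padj = 0.0294). Both count models called it (edgeR padj = 0.0250, DESeq2 padj = 0.00485). The log2 fold change stayed between 0.50 and 0.73 in 18 alternatives, which leave out the scaling to Sox10 given below. The limma padj was 0.0711 without PEG 1, 0.114 without PEG 2, 0.0739 without NC 1 and 0.0801 without NC 2. Of the 8 genes, Lif, Gdnf and Nrtn had every PEG-fused PNA above every NC PNA, an order found in 25.6% of all tested genes, and Gfra3 alone had every PEG-fused PNA below, an order found in 23.3%.

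The subunits that receive CNTF and LIF had different patterns. Cntfr, the α-receptor of CNTF, was counted at 96.4, 125 and 91.9 in PEG 1 to 3, at 75.1, 36.6 and 76.2 in NC 1 to 3, and at 1457 and 1126 in the Unop nerves, so it was lower in both kinds of PNA (log2 fold change -3.62 and -4.41 against Unop nerves, limma padj = 4.24e-05 and 9.9e-06). Lifr, which both cytokines need, was counted at 246, 202 and 279 in PEG 1 to 3, at 577, 424 and 535 in NC 1 to 3, and at 1674 and 2316 in the Unop nerves. The groups did not overlap, and Lifr was lower in PEG-fused than in NC PNAs (log2 fold change -1.08, limma padj = 0.00424), the opposite sign to Lif. Il6st, the gene of the shared signalling subunit gp130, lay between 5304 and 8221 in the 8 libraries and was called in no comparison by limma, with padj of 0.860 between the PNAs, 0.225 for PEG-fused PNAs and 0.151 for NC PNAs against Unop nerves.

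**Figure D2:**
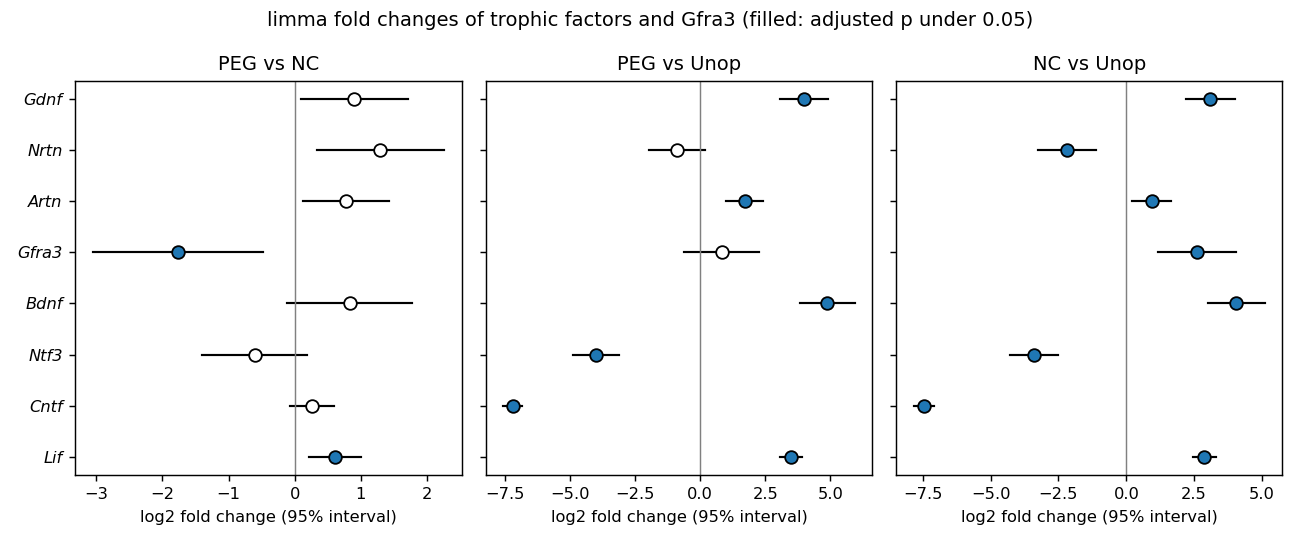
Log2 fold changes of the 8 genes with 95% intervals from limma, in 1 panel for each pair of groups; the first group named is the numerator, horizontal scales differ between panels and filled points have a padj under 0.05. Against Unop nerves, Cntf lies at -7.21 and -7.47 and Bdnf at 4.88 and 4.05, while between the PNAs only Lif (0.61) and Gfra3 (-1.76) are filled.

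Other genes of these pathways were taken from a list of 30, of which 29 could be tested and Gfral had no read in any library. Between PEG-fused and NC PNAs, 7 were higher (Gfra2, Gfra4, Ngfr, Sort1, Clcf1, Ptn and Mdk) and 4 lower (Ret, Osm, Lifr and Vegfa), with a median log2 fold change of 0.20, beside 0.0017 over all tested genes. Of all tested genes, 15.0% were higher and 13.9% lower, and the count of lower genes in the list was close to that share. Clcf1, which encodes a further ligand of the CNTF receptor, was higher by 0.76 on the log2 scale (limma padj = 0.0161). Mdk and Ptn, which encode the heparin-binding factors midkine and pleiotrophin, were higher by 1.31 and 0.80 (limma padj = 0.00245 and 0.00587), and Sort1, which encodes the proneurotrophin receptor sortilin, by 0.52 (limma padj = 0.00658). Osm, the gene of oncostatin M, was lower by 0.66 and the vascular growth factor gene Vegfa by 0.39 (limma padj = 0.0180 and 0.0349). Without PEG 2, 6 of the 29 were called, and Gfra2, Gfra4, Clcf1, Osm and Vegfa were not among them, and without PEG 3, 7 were called. The shares of all tested genes in these smaller fits are not given here. The call of Clcf1 was also lost without PEG 1, that of Osm without PEG 3 or NC 2, and that of Vegfa without PEG 1, PEG 3, NC 2 or NC 3, whereas Ret, Ngfr, Sort1, Lifr, Ptn and Mdk were called with each library left out in turn.

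Against Unop nerves, 10 of the 29 were higher and 9 lower in PEG-fused PNAs, and 9 were higher and 11 lower in NC PNAs. These counts were close to the shares of all tested genes, 29.1% higher and 28.6% lower in the PEG-fused PNAs and 32.2% and 32.3% in the NC PNAs. In the GDNF family group of this list, none of 5 tested genes was called higher in either kind of PNA, while Ret was lower in PEG-fused PNAs and Gfra2, Gfra4 and Ncam1 in NC PNAs. Among the 9 relatives of CNTF and LIF in the list, 4 were higher and 3 lower in PEG-fused PNAs, where Il6, Osm, Osmr and Clcf1 were the higher ones and Ctf1, Cntfr and Lifr the lower ones.

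**Figure D3:**
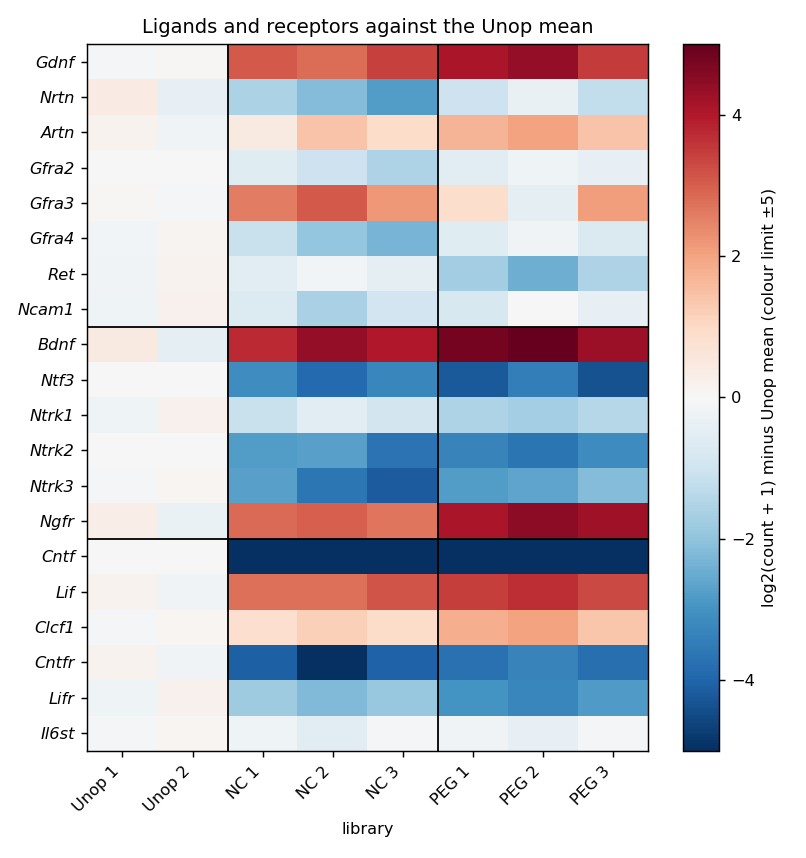
Heat map of log2(normalized count + 1) in each library less the mean of the Unop nerves, with ligand and receptor genes in rows and the 8 libraries in columns; lines part the GDNF family, the neurotrophins, and the CNTF and LIF relatives, and colours are limited at 5 in either direction. Gdnf, Bdnf, Ngfr and Lif are red in all 6 PNAs, Ntf3, Ntrk2, Ntrk3, Cntf, Cntfr and Lifr are blue in all 6, and Gfra3 is pale in PEG 1 and PEG 2.

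Counts of the trophic factor genes were also set against those of Sox10, a transcription factor of Schwann cells in any state. Sox10 was counted at 2491, 2575 and 2686 in PEG 1 to 3, at 1792, 1438 and 1196 in NC 1 to 3, and at 4257 and 3864 in the Unop nerves. The groups did not overlap, and the log2 fold change between PEG-fused and NC PNAs was 0.83, beside 0.66 for Erbb3 and 0.86 for Cdh19. Against Unop nerves the 3 markers differed from each other in PEG-fused PNAs, with log2 fold changes of -0.65 for Sox10, 0.27 for Erbb3 (limma padj = 0.122) and -1.94 for Cdh19, so values relative to Sox10 depend on the marker chosen there. Relative to Sox10 in the same library, a scaling chosen after the data were seen, the log2 fold change between PEG-fused and NC PNAs was 0.00 for Bdnf (95% interval between -0.97 and 0.98), 0.07 for Gdnf (-0.93 to 1.08), 0.47 for Nrtn (-0.42 to 1.35), -0.05 for Artn (-0.81 to 0.70) and -0.22 for Lif (-0.79 to 0.35). Lif was thus no longer called (limma padj = 0.476) and had the opposite sign.

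On this scale 3 genes were lower in PEG-fused than in NC PNAs. The scaling takes the Sox10 log2 fold change of 0.83 from that of every gene. Before it, the median over all tested genes was 0.0017, and Cntf was at 0.26. A gene called lower here is thus lower relative to Sox10 and not relative to the typical gene. The share of all tested genes called on this scale is not given here. They were Gfra3 (log2 fold change -2.59, limma padj = 0.000886), Ntf3 (-1.43, limma padj = 0.00881) and Cntf (-0.56, limma padj = 0.0129). Per 1000 Sox10 counts, Gfra3 was counted between 15.6 and 89.4 in PEG-fused PNAs and between 188 and 332 in NC PNAs, and Cntf between 99.5 and 119 in PEG-fused PNAs and between 152 and 182 in NC PNAs. Against Unop nerves, the fold changes of Bdnf, Gdnf, Artn, Lif, Cntf and Ntf3 kept their signs and calls in both kinds of PNA. Nrtn in NC PNAs was no longer called on this scale (log2 fold change -0.70, limma padj = 0.167), and Gfra3 in PEG-fused PNAs was (1.48, limma padj = 0.0330). Whether the factors come from Schwann cells was not tested.

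**Figure D4:**
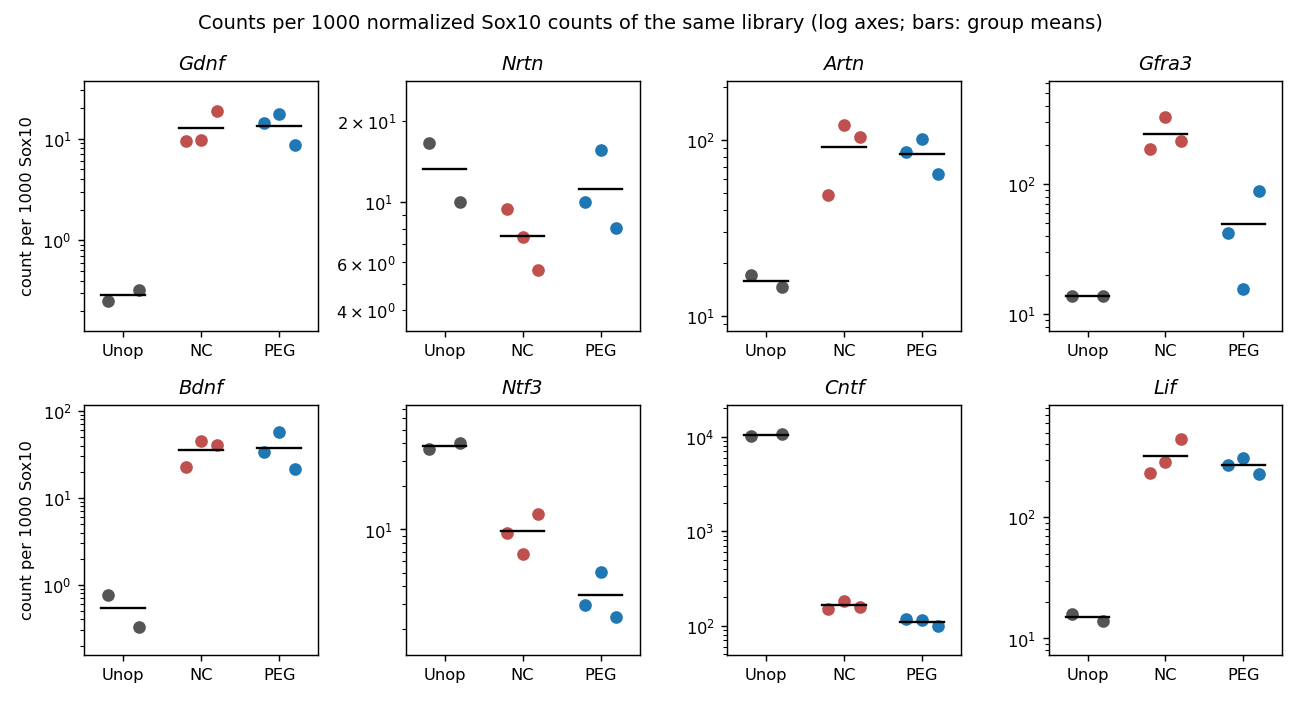
Normalized counts of the 8 genes per 1000 normalized Sox10 counts of the same library, on log axes that differ between panels; dots are libraries and bars arithmetic group means. Means of Bdnf are 37.5 in PEG-fused and 35.9 in NC PNAs and those of Gdnf 13.4 and 12.6, whereas Gfra3 is at 49.1 and 245 with no overlap.

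Promoter windows hold the sequence around an annotated gene start. Printed here are 3, for a factor that was lower in PNAs and 2 that were higher. RefSeq windows on GRCr8, from 250 bases before to 50 after a gene's start, were at hand for 7 of the 8 genes in 14 windows, 6 of them for Bdnf and 3 for Ntf3. They were searched on both strands for the letters of 4 motifs. AP-1 was searched as TGANTCA, a loose form, open at its middle base, of the site bound by Jun and its partners. The others were STAT (TTCNNNGAA, for the STAT factors downstream of gp130), SoxE (ACAAAG, for Sox10 and its relatives) and the E-box CACGTG. Capitals mark a match. The first window is that of Cntf at chr1:219314486-219314785 (- strand), with AP-1 letters starting 72 bases upstream. The second is that of Gdnf at chr2:58621077-58621376 (+ strand), with no match. The third is 1 of the 6 Bdnf windows, at chr3:116621721-116622020 (+ strand), with AP-1 letters starting 152 bases upstream.
Cntf: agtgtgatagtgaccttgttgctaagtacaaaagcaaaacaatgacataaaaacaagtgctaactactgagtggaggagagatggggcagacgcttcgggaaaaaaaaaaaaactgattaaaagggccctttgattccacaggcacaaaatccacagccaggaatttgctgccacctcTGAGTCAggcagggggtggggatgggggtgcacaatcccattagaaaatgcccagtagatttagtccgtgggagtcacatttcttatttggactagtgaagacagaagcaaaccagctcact
Gdnf: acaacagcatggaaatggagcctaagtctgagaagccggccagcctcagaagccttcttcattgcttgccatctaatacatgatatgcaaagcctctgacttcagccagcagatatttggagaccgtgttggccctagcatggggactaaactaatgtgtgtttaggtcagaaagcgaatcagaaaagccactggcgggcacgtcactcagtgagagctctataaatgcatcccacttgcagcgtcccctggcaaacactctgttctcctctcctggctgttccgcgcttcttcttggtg
Bdnf: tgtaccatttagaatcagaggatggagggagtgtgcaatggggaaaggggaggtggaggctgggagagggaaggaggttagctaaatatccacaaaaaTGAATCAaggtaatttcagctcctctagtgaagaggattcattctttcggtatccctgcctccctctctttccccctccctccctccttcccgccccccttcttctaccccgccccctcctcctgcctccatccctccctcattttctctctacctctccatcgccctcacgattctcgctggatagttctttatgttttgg

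Of the 14 windows, 2 held the AP-1 letters, 1 each the STAT, SoxE and E-box letters, all 3 of these in other Bdnf windows, and 9 held none. The 14 windows are not all separate sequences. Ntf3 windows at chr4:160670574-160670873 and chr4:160670573-160670872 nearly coincide, and Bdnf windows at chr3:116639552-116639851 and chr3:116639608-116639907 overlap. Among 33469 rat windows of the same length, 7.33% held the AP-1 letters, 8.87% the STAT letters, 18.8% the SoxE letters and 6.42% the E-box. The AP-1 letters were thus found in a window of Cntf, lower in PNAs, as TGAGTCA. They were also found in a window of Bdnf, higher in PNAs, as TGAATCA, and the 2 matches differ at the open middle base.

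Jun, an AP-1 subunit and a regulator of the repair state, was counted at 7146, 8808 and 6345 in PEG 1 to 3, at 4742, 5201 and 4968 in NC 1 to 3, and at 2844 and 2330.1 in the Unop nerves. These groups did not overlap, and Jun was higher in PEG-fused than in NC PNAs by 0.57 on the log2 scale (limma padj = 0.0147). Sox2, a factor of immature Schwann cells, was counted at 1008, 1067 and 852 in PEG 1 to 3, at 435, 485 and 396 in NC 1 to 3, and at 437 and 298 in the Unop nerves (log2 fold change between the PNAs 1.15, limma padj = 0.00221). Shh, the gene of sonic hedgehog, was counted at 348, 214 and 390.2 in PEG 1 to 3, at 64.3, 28.0 and 37.6 in NC 1 to 3, and at 413 and 367 in the Unop nerves, and was higher in PEG-fused than in NC PNAs by 2.88 (limma padj = 0.00102). Olig1, a glial factor, lay between 14.1 and 43.9 in PEG-fused and between 3.86 and 14.3 in NC PNAs and was not called (limma padj = 0.0729). Of 8 genes listed for the repair state, 5 were higher in PEG-fused than in NC PNAs and none was lower. The 5 were Jun, Sox2, Shh, Atf3 and Btc, and of all tested genes 15.0% were higher and 13.9% lower. The list was chosen with earlier results of these data known, so this count is a description only. Sox10 was higher by 0.83 in the same comparison, and the part of Schwann cell content in these values was not tested.

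The genes with profiles most like those of the trophic factors were found by the root mean square difference of centred log2(count + 1) over the 8 libraries. Nearest to Gdnf were Mastl (0.26), Diaph3 and Anln, and nearest to Lif were Mms22l (0.16), Ddias and Diaph3. For Bdnf they were Col7a1 (0.23), Ptprv and Fam167a, and for Artn Sez6l2 (0.13), Ednra and Gper1. Nrtn was nearest to Foxd1 (0.23), Cpe and Col4a5, and Gfra3 to Fpr2 (0.32), Gsdmc and S1pr4. Among the factors lower in PNAs, Ntf3 was nearest to Idi1 (0.34), S100a3 and Cdh1, and Cntf to Dusp15 (0.32), Fgf4 and Vsnl1. Dusp15, like Cntf, was far lower in PNAs, with a mean count of 14152 in Unop nerves, 111 in PEG-fused PNAs and 98.2 in NC PNAs. All of these profiles come from the same 8 libraries, and the order is a description only.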

How the data were processed

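Paired-end reads of poly-A-enriched, stranded libraries (TruSeq) were aligned by the authors to the rat genome (Rnor 6.0) with TopHat2 and counted per Ensembl gene with HTSeq. The deposited signal values are normalized read counts, which the authors made by scaling each library with DESeq2 (median of ratios). The deposited tables of the authors' own fold changes and p-values were not used.

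Divided by 1 constant for each library, 100% of values came out as whole reads (tolerance 0.001). A gene was tested if 2 or more libraries reached 10 normalized counts, which 16478 of 22798 genes with a read did. Limma 3.58.1 (R 4.3.3) with an intensity trend was fitted to log2(normalized count + 1) in a group-means model of the 8 libraries, and called genes had a Benjamini-Hochberg adjusted p under 0.05 over all tested genes of a comparison. This scale understates the change of low counts, and the 3 groups share 1 estimate of the spread because Unop has 2 nerves. Counting intervals cover counting error only. Levels were not compared between genes, since no transcript lengths of this build were used.

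Alternatives were edgeR 4.0.16 and DESeq2 1.42.0 on the recovered reads, TMM factors, pseudocounts of 8 and 0.5, no filter, a stricter filter (50 counts), a robust fit, fits of only the 2 groups of a comparison, a replicate block, a fold change threshold and each library left out in turn. Scaling to Sox10 was added after the data were seen. The limma fit was tested on simulated counts. The genes, the lists of pathway, repair and marker genes, the motifs and the rule for the 3 genes nearest in profile were chosen with earlier results of these data known. Among the pathway genes, those named are the receptor subunits and any called between the PNAs. A few listed pathway and marker genes are not reported here and were left out of their lists. Figures were drawn with matplotlib 3.10.9.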

Additional observations from a re-analysis of the deposited data

How the results depend on the processing

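Of the 8 genes, 2 were called between PEG-fused and NC PNAs in limma, 1 in edgeR, without a filter on low values, in a fit of only the 2 groups and with a log2 fold change past 1 required, and 4 in DESeq2, which added Artn and Nrtn. Leaving out single libraries, the number lay between 0 and 2, and that of other pathway genes between 6 and 12, beside 11. The replicate numbers of the groups are not stated to mark a shared animal, and same-numbered PEG-fused and NC PNAs had correlations of 0.11, 0.11 and -0.05 in their deviations from group means, and PEG 3 correlated best with NC 2, so they were not taken as pairs. With a replicate block, 0 of the 8 genes were called by limma between the PNAs, where 5 had an unadjusted p under 0.05 (Lif limma padj = 0.0650, Gfra3 limma padj = 0.0753); against Unop nerves, 6 were called in PEG-fused PNAs and 8 in NC PNAs. Scaling to Sox10 took 0.83 from every log2 fold change between the PNAs. Relative to Sox10, the log2 fold changes between the PNAs reversed for Artn (-0.055), Cntf (-0.56) and Lif (-0.22), and 3 genes were called. Of the other comparisons of single genes, under the 19 settings that gave each gene a test (the fold change threshold did not), 416 kept their direction and their side of the threshold, 22 lost a call and 9 gained one. Gdnf and Nrtn did not pass the filter of 50 counts and have no value there. The cause of these changes was not tested. The share of all tested genes, called or with an unadjusted p under 0.05, is not given for each setting. A change in these counts therefore cannot be told from a change over all tested genes. No gene of this group reversed under any setting but Sox10. Depth limits the values of Bdnf and Gdnf in Unop nerves, which rest on 4 and 2 reads in all, and those of Ntf3 in PNAs.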
